A study of Mus musculus with 4 samples.

Results

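A set of 10 mouse genes of the naive state of pluripotency were followed in epiblast stem cells induced from embryonic stem cells (iEpiSCs), either wild type or lacking c-Jun, the AP-1 family member encoded by Jun. They were taken by name from the deposited gene tables as the factors Tbx3, Klf2, Klf4, Klf5, Esrrb, Tfcp2l1 and Nanog and the developmental pluripotency associated genes Dppa2, Dppa4 and Dppa5a. All 10 were found among the 29267 genes listed, and all 10 passed the filter on low counts. RNA was sequenced in 4 libraries: 2 (replicates 2 and 3) had the genotype c-Jun-/- and 2 (replicates 2 and 3) were wild type. In both genotypes the cells began as embryonic stem cells grown in 2i and LIF and were converted in medium with 20 ng/ml Activin A, 20 ng/ml bFGF, 2 µM XAV939 and 2.5 µM IWR-1, the last a pair of inhibitors of canonical Wnt signalling. For all 4 libraries the labels give a delay of 8 h before conversion and colonies on days 4 to 5. Whether the replicates were separate cultures, or the lines single clones, is not in the labels. The p-values therefore measure the spread between these libraries alone, which may be technical, and genotype and cell line cannot be told apart.

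Naive pluripotency is the state of the epiblast before implantation. In embryonic stem cells LIF acts through STAT3 on Klf4 and Tfcp2l1, inhibition of GSK3 relieves Esrrb of repression by Tcf7l1, and inhibition of MEK favours Klf2 and Nanog. Primed epiblast stem cells represent the later epiblast, depend on Activin and FGF, and are known for low levels of most naive factors, while Nanog is kept in both states. The protein products of Dppa2 and Dppa4 act as a pair that binds chromatin and is known to poise developmental promoters and to open the transcription of genes of the cleavage-stage embryo.

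Total expected counts lay between 4666559 and 6341342 per library, and 3 counts, the upper limit for a gene with none, corresponded to 0.473 to 0.643 CPM (counts per 1000000 counts). Jun was lower in both c-Jun-/- libraries (28.9 and 29.6 CPM) than in wild type (106 and 121 CPM), which checks the labels. Of the 12 epiblast stem cell markers looked at, such as Fgf5, Otx2, T and Pou5f1, all were detected and tested, and their summed level was 3440 and 3430 CPM in the c-Jun-/- libraries and 4430 and 4470 CPM in wild type. Of these 12, 9 were called lower and 1 (Pou5f1) higher, with Cer1 (-2.54), Otx2 (-1.18) and Fgf8 (-1.08) among the lower ones, and their part in the results below was not tested. Genes of chromosome 8 stood apart from the others, with a median log2 fold change of 0.51 over 684 tested genes against -0.01 on the other autosomes. Throughout, fold changes are log2 ratios of c-Jun-/- over wild type from edgeR's quasi-likelihood test with n = 2 libraries per genotype, ± gives the standard error, and adjusted p-values are Benjamini-Hochberg values over the 12598 genes tested.

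In all, 6 of the genes were higher in the c-Jun-/- libraries, namely Dppa2, Dppa4, Dppa5a, Tbx3, Klf2 and Klf5. Klf4, Esrrb, Tfcp2l1 and Nanog were not called. The 6 of 10 called higher stand beside 8.21% of all tested genes, and the 0 of 10 called lower beside 7.32% (edgeR, with 0 lower at an unadjusted p under 0.05, and 0 lower by DESeq2 or limma). Most of these transcripts were scarce: 8 of the 10 had a mean under 10 CPM, and 5 of those 8 were called higher, beside 5.48% of the 2918 tested genes in that range (4.59% of which were called lower, against 0 of the 8). Of these, Dppa2, Dppa4, Dppa5a and Tbx3 reached 10 counts only in the c-Jun-/- libraries, so they entered the test through the group in which they were high, and the share supports nothing. The median log2 fold change of the 10 was 0.80, against 0.00 over all genes tested. It is the midpoint of the values of Klf5 and Klf2, so setting Dppa4 and Tbx3 at the lower bounds given below cannot move it, while the chromosome 8 value of Klf2 given below would lower it. The libraries of the genotypes did not overlap in 9 of the 10 genes, 8 of them higher and 1 (Esrrb) lower in c-Jun-/-. Such separation was common, with 27.0% of tested genes separated upwards and 26.9% downwards. In bulk RNA, more cells of a kind and more transcript per cell cannot be told apart.

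**Figure D1:**
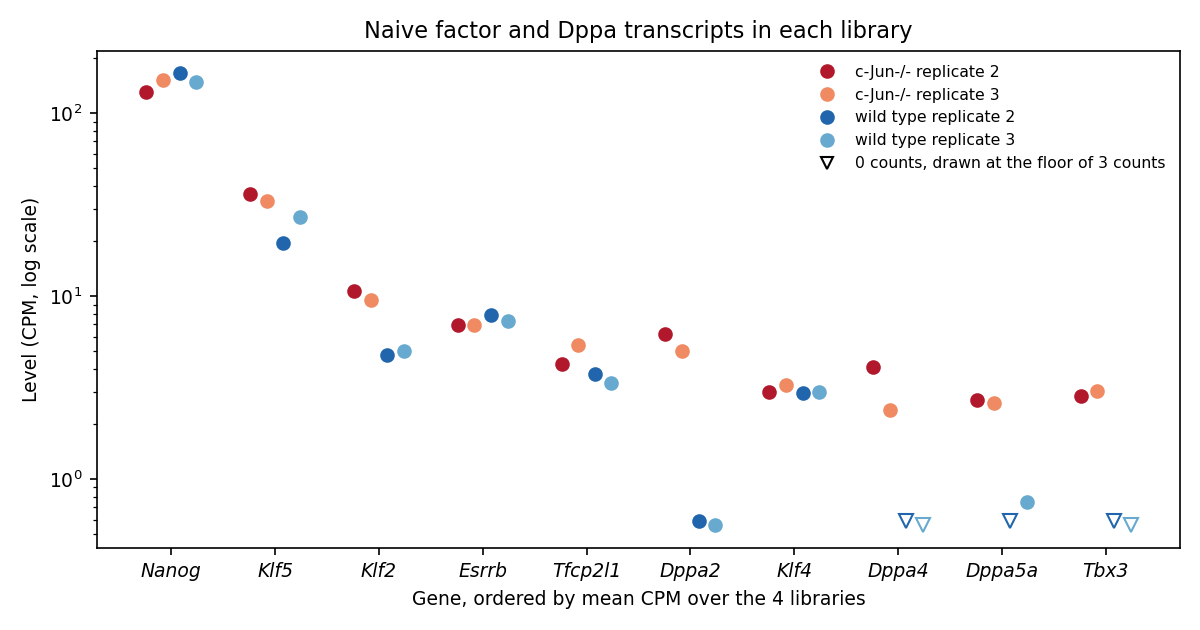
Level of each gene in each library in CPM on a log axis, with genes ordered by their mean; filled points are libraries (red and orange c-Jun-/-, dark and light blue wild type) and open triangles mark libraries with 0 counts, drawn at the floor of 3 counts. Nanog lay above 100 CPM in every library, whereas Dppa4 and Tbx3 had counts only in the c-Jun-/- libraries.

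The 3 Dppa genes were all higher in the c-Jun-/- libraries. Dppa2 (ENSMUSG00000072419, chromosome 16, 48303908 to 48319723, GRCm38, plus strand) encodes a DNA-binding protein with a SAP domain. It had 39 and 23 counts in c-Jun-/- replicates 2 and 3 and 3 counts in each wild-type library, or 6.19, 5.00, 0.593 and 0.560 CPM. Both c-Jun-/- libraries thus lay above both wild-type libraries, in which the level was at the floor of 3 counts. Its log2 fold change was 3.24 ± 0.64 (edgeR adjusted p = 0.00034), and the ratio of summed counts, 62 against 6 and scaled for depth, was 9.87 with an exact 95% interval of 4.29 to 27.9 that covers counting error only. The call of Dppa2 held in each alternative run, with log2 fold changes from 2.06 to 3.37.

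Dppa4 (ENSMUSG00000058550, chromosome 16, 48283733 to 48294237, plus strand), which encodes the partner of Dppa2, had 26 and 11 counts in c-Jun-/- replicates 2 and 3 and 0 in both wild-type libraries. Set against 3 counts in the 2 wild-type libraries together it was at least 11.8-fold higher in c-Jun-/- (edgeR adjusted p = 0.000268; the exact 95% lower limit of the count ratio, which also covers counting error in c-Jun-/-, was 9.11), and set against 3 counts in each of them at least 5.89-fold. Without c-Jun-/- replicate 2 only 11 counts remained, Dppa4 fell below the filter on low counts and was not tested. Without wild-type replicate 2 or 3 the bound was 6.06 or 5.72. Dppa2 and Dppa4 lie side by side, with starts 20.2 kb apart. The other listed coding gene within 250 kb of either, the germline gene Morc1, was below the filter, with 6 and 0 counts in the c-Jun-/- libraries and 0 and 2 in wild type. The level of Morc1 overlapped between the genotypes, but its counts were too few to compare it with Dppa2 and Dppa4.

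Dppa5a (ENSMUSG00000060461, chromosome 9, 78367052 to 78368177, minus strand) encodes a small RNA-binding protein with a KH domain that is abundant in embryonic stem cells. It had 17 and 12 counts in the c-Jun-/- libraries (2.70 and 2.61 CPM) and 0 and 4 in wild type (at most 0.746 CPM). The groups did not overlap, but wild-type replicate 3 held all of the wild-type counts. The log2 fold change was 2.72 ± 0.87 (edgeR adjusted p = 0.0286), and the ratio of summed counts was 6.93 (exact 95% interval 2.43 to 27.1, counting error only). The call was lost without c-Jun-/- replicate 2 (edgeR adjusted p = 0.190) or c-Jun-/- replicate 3 (0.146), and with DESeq2 (0.146). Leaving out wild-type replicate 2 also ended it (0.357), at a log2 fold change of 1.80. Without wild-type replicate 3 the other wild-type library was at 0 and the fitted log2 fold change was 6.83. Of the 15 other coding genes within 250 kb, 14 were in the tables and 5 were tested, of which 1 was called higher and none lower. That gene, Eef1a1, encodes a translation elongation factor and differed by 0.12 ± 0.03. Ooep, an oocyte gene next to Dppa5a, had 0 counts in every library, and Ddx43, an RNA helicase gene 27.6 kb away, had 10 and 6 counts in c-Jun-/- and 0 and 3 in wild type, below the filter. The last 2 were chosen after their values were seen.

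Genes of the cleavage-stage embryo, a class that DPPA2 and DPPA4 are known to activate, and a list of germline genes were looked at in the same libraries. Of 18 genes of the 2-cell stage embryo, among them the Zscan4 and Tdpoz clusters, 15 were in the tables, none passed the filter and 9 had 0 counts in every library. Their summed level was 0.476 and 2.83 CPM in the c-Jun-/- libraries and 1.19 and 0.933 CPM in wild type, so the groups overlapped. Most of the higher c-Jun-/- value came from Usp17le, a ubiquitin protease gene of a family with near-identical copies, with 10 counts in replicate 3. Of 15 germline genes, 14 were in the tables and none passed the filter. Mael, Hormad1, Taf7l, Asz1 and Tex11 had 0 counts in every library, and the summed level of the list was 3.96 and 3.48 CPM in c-Jun-/- against 3.76 and 3.17 CPM in wild type. A difference in these lists was not detectable at this depth.

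**Figure D2:**
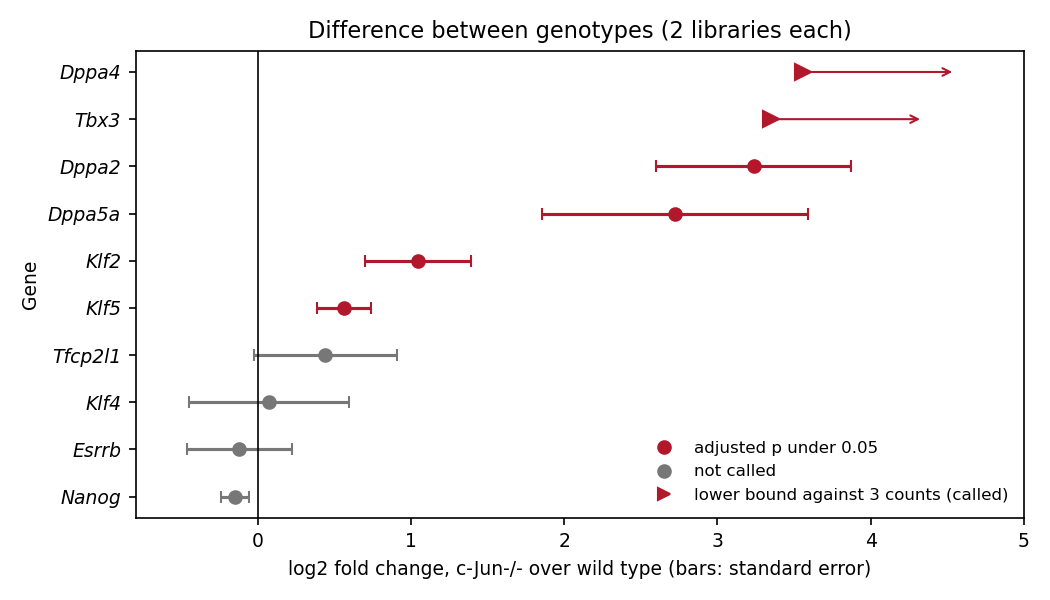
Log2 fold change of each gene, c-Jun-/- over wild type, with bars for the standard error; red marks an adjusted p under 0.05, grey marks genes not called, and triangles with arrows mark lower bounds for the genes at 0 in wild type. The 3 Dppa genes and Tbx3 stand above 2.5, Klf2 and Klf5 lie near 1.05 and 0.56, and the other 4 genes have bars that include 0 or lie below it.

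Tbx3 (ENSMUSG00000018604, chromosome 5, 119670669 to 119684724, plus strand) encodes a T-box repressor that sustains the naive state downstream of PI3 kinase signalling. It had 18 and 14 counts in the c-Jun-/- libraries (2.85 and 3.04 CPM) and 0 in both wild-type libraries. The groups did not overlap, and the 2 c-Jun-/- libraries had close levels. Taking 3 counts for the 2 wild-type libraries together, Tbx3 was at least 10.2-fold higher (edgeR adjusted p = 0.00047; exact 95% lower limit of the count ratio 7.82) and taking 3 for each of them at least 5.10-fold. Without c-Jun-/- replicate 2 it fell below the filter on low counts and was not tested, without wild-type replicate 2 or 3 the bound was 5.24 or 4.95, and limma on log2(TPM + 1) did not call it (adjusted p = 0.0938). The one other coding gene within 250 kb, Tbx5, a T-box gene of heart and forelimb, had 0 counts in every library.

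Of the 16 other T-box genes, 7 were tested, with 1 higher, 2 lower and 4 not called, and their median log2 fold change was -0.48. Eomes, a factor of the primitive streak, was lower at 69.6 and 63.9 CPM against 93.7 and 92.7 CPM (-0.48 ± 0.11, edgeR adjusted p = 0.00131). It was not called with limma on log2(TPM + 1) (adjusted p = 0.117). Mga, which joins a T-box to a Max-binding domain, stood at 0.21 ± 0.07 (edgeR adjusted p = 0.0402). It was no longer called without c-Jun-/- replicate 2 (0.493) or wild-type replicate 3 (0.206), or without TMM scaling (0.0814). Tbx1 was called at -1.57 ± 0.53 (edgeR adjusted p = 0.0385) from 2.06 and 2.83 CPM in c-Jun-/- and 11.5 and 2.98 CPM in wild type. That call was lost in 6 of 15 alternatives, among them DESeq2 (adjusted p = 0.122) and limma voom (adjusted p = 0.133). Without wild-type replicate 2 Tbx1 stood at -0.31. Tbx2, the nearest relative of Tbx3, stood at -0.15 ± 0.32 and was not called. Tbx5, Tbx18 and Tbx22 were at 0 in every library.

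The pattern of Dppa4 and Tbx3, with 0 counts in both wild-type libraries and at least 10 in both c-Jun-/- libraries, was shared by 11 other genes, 13 in all, while 1 gene had the reverse pattern. At minimums of 5 and 20 counts the numbers were 24 and 3 genes at 0 in wild type, and 5 and 0 at 0 in c-Jun-/-. Among coding genes at 0 in wild type other than Dppa4, Tbx3 and those with predicted names, those with the highest summed c-Jun-/- level over the 4 libraries were Pnma5 (39 and 36 counts), Rgs2, a regulator of G protein signalling (49 and 16), Smim3 (29 and 19), the lysosomal enzyme gene Aga (16 and 22) and Htatip2 (16 and 15). Aga lies on chromosome 8. Dppa4 and Tbx3 had lower summed levels (6.52 and 5.90 CPM) than the first 4 of these.

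The Klf genes encode zinc finger factors that bind GC-rich promoter elements and overlap in function in embryonic stem cells. Klf5 (ENSMUSG00000005148, chromosome 14, 99298691 to 99315036, plus strand) was the most abundant of them, with 36.0 and 33.1 CPM in the c-Jun-/- libraries and 19.6 and 27.2 CPM in wild type. Both c-Jun-/- libraries were above both wild-type libraries, which themselves lay further apart. The log2 fold change was 0.56 ± 0.18 (edgeR adjusted p = 0.0253). Klf5 was not called when c-Jun-/- replicate 2 was left out (0.124), nor with DESeq2 (0.100). Leaving out wild-type replicate 2 gave a log2 fold change of 0.34 and no call (0.307). The coding genes within 250 kb, Dis3 and Pibf1, were both tested and not called, at 0.17 ± 0.10 and -0.09 ± 0.19.

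Klf2 (ENSMUSG00000055148, chromosome 8, 72319033 to 72321656, plus strand) had 67 and 44 counts in the c-Jun-/- libraries (10.6 and 9.57 CPM) and 24 and 27 in wild type (4.75 and 5.04 CPM). The groups were separated in all 4 pairs of libraries, by log2 ratios of 0.93 to 1.16. The log2 fold change was 1.05 ± 0.35 (edgeR adjusted p = 0.0353), and the ratio of summed counts was 2.08 (exact 95% interval 1.48 to 2.96, counting error only). Klf2 lies on chromosome 8, where higher calls were common: 391 of its 684 tested genes, or 57.2%, were called higher. When the median of chromosome 8 was subtracted from its genes, the log2 fold change of Klf2 was 0.53 and it was not called (edgeR adjusted p = 0.368). Nor was it called without any 1 of the 4 libraries (0.0612 to 0.185) or with DESeq2 (0.112).

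The neighbourhood of Klf2 showed the same direction. Of 16 other coding genes within 250 kb, 10 were tested, 7 were higher, none was lower and 3 were not called, with a median log2 fold change of 0.51. The nearest called gene, Ap1m1, a subunit of the clathrin adaptor, stood at 0.30 ± 0.10, and Fam32a had the highest value, 0.70 ± 0.09. The value of Klf2 lay above these, but its standard error was larger, and the difference from its neighbours was not tested. For comparison, the tested coding gene within 250 kb of Klf4 (Rad23b, -0.08 ± 0.06), of Esrrb (Gpatch2l, -0.19 ± 0.20) and of Tfcp2l1 (Clasp1, -0.05 ± 0.08) was in no case called.

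Klf4 (ENSMUSG00000003032, chromosome 4, 55527143 to 55532466, minus strand), a target of LIF and STAT3, was low and near equal, at 3.01 and 3.26 CPM in c-Jun-/- and 2.97 and 2.98 CPM in wild type. The log2 fold change was 0.07 ± 0.52 (edgeR adjusted p = 0.955), with an approximate 95% interval of -0.95 to 1.10, so a change of up to about that size was not detectable at this depth. Of the 14 other Klf genes, 10 were tested, with 1 higher, none lower and 9 not called (edgeR; 1 lower at an unadjusted p under 0.05, and 0 lower by DESeq2 or limma), and a median of 0.00. The one called, Klf3, a repressor that recruits CtBP, stood at 60.4 and 53.7 CPM in c-Jun-/- and 32.0 and 43.5 CPM in wild type (0.60 ± 0.14, edgeR adjusted p = 0.00304). That call was lost without wild-type replicate 2 and with limma on log2(TPM + 1) (adjusted p = 0.223). Klf17 had 0 counts in every library.

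RefSeq start site windows, 250 bases before to 50 after each start on GRCm38.p6, were given for 5 of the 10 genes, Tfcp2l1, Klf4, Nanog, Klf2 and Esrrb. The bases before both the RefSeq and the GENCODE start are shown for Klf2, Klf4 and Nanog (221 bases for Klf2, whose GENCODE start is the earlier one, and 250 for the others), to set the 2 CpG-rich Klf start sites beside that of the most abundant gene. Each is given 5′ to 3′ on the gene's strand, with CpG dinucleotides in capitals.

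Klf2, chr8:72318812-72319032, plus strand: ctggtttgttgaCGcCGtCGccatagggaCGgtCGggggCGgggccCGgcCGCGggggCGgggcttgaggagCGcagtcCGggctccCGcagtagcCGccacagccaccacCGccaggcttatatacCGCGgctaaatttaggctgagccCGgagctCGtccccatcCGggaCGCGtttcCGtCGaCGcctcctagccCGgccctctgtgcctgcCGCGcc

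Klf4, chr4:55532476-55532725, minus strand: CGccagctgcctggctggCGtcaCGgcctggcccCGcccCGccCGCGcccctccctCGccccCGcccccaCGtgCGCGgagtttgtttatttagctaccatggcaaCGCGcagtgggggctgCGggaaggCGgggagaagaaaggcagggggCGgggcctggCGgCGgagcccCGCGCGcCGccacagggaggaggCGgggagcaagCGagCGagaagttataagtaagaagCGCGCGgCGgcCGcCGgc

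Nanog, chr6:122707239-122707488, plus strand: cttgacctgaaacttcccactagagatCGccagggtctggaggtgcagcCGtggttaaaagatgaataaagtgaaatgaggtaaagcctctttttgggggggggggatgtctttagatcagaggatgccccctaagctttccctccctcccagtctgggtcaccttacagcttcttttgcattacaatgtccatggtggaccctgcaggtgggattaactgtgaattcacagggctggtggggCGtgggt

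In the 300-base windows Klf2 had 32 CpG and Klf4 had 40, above 90.5% and 96.1% of the 32851 windows in the table, while Nanog had 4 (above 31.4%) and the median window had 7. Tfcp2l1 had 21 CpG and both Esrrb windows had 7. None of the windows of these 5 genes held a match on either strand to the AP-1 element TGANTCA, the CRE element TGACGTCA, the ESRRB element AAGGTCA or the KLF element in the form GGGTGTGG. Related forms were not searched. Among these is GGGCGTGG, present in the Nanog stretch shown above and, on the other strand, in the Tfcp2l1 window. The windows are thus not shown to lack KLF elements. Matches to the 4 forms searched were present in 7.81%, 1.79%, 4.72% and 3.56% of all windows.

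Esrrb (ENSMUSG00000021255, chromosome 12, 86361117 to 86521628, plus strand) encodes an orphan nuclear receptor that binds many naive promoters. It had 6.98 and 6.96 CPM in the c-Jun-/- libraries and 7.91 and 7.28 CPM in wild type. Both c-Jun-/- libraries lay slightly below both wild-type libraries. The log2 fold change was -0.12 ± 0.34 (edgeR adjusted p = 0.873), with an approximate 95% interval of -0.80 to 0.55. Esrra and the relatives of Tfcp2l1 gave no call either: of 7 relatives of Esrrb and Tfcp2l1, 6 were tested and none was higher or lower (edgeR; 0 higher and 1 lower at an unadjusted p under 0.05, and 0 called by DESeq2 or limma).

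Tfcp2l1 (ENSMUSG00000026380, chromosome 1, 118627945 to 118685168, plus strand), a CP2 family factor induced by LIF and STAT3, had 27 and 25 counts in c-Jun-/- replicates 2 and 3 and 19 and 18 in wild type, or 4.28, 5.44, 3.76 and 3.36 CPM. The c-Jun-/- libraries were the higher ones, but the difference of 0.44 ± 0.47 was within its error (edgeR adjusted p = 0.607, approximate 95% interval -0.48 to 1.35). On the TPM scale, which divides by transcript length, the same libraries read 5.35, 1.04, 0.76 and 0.67. c-Jun-/- replicate 2 stood apart there, and its deposited effective length was 1432 bases, against 9061 to 9065 bases in the other 3 libraries. The annotation gives this gene 2 transcripts, of 478 and 9269 bases, between which reads are apportioned. The count of Tfcp2l1 was alike in the c-Jun-/- libraries, whereas their TPM was not.

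**Figure D3:**
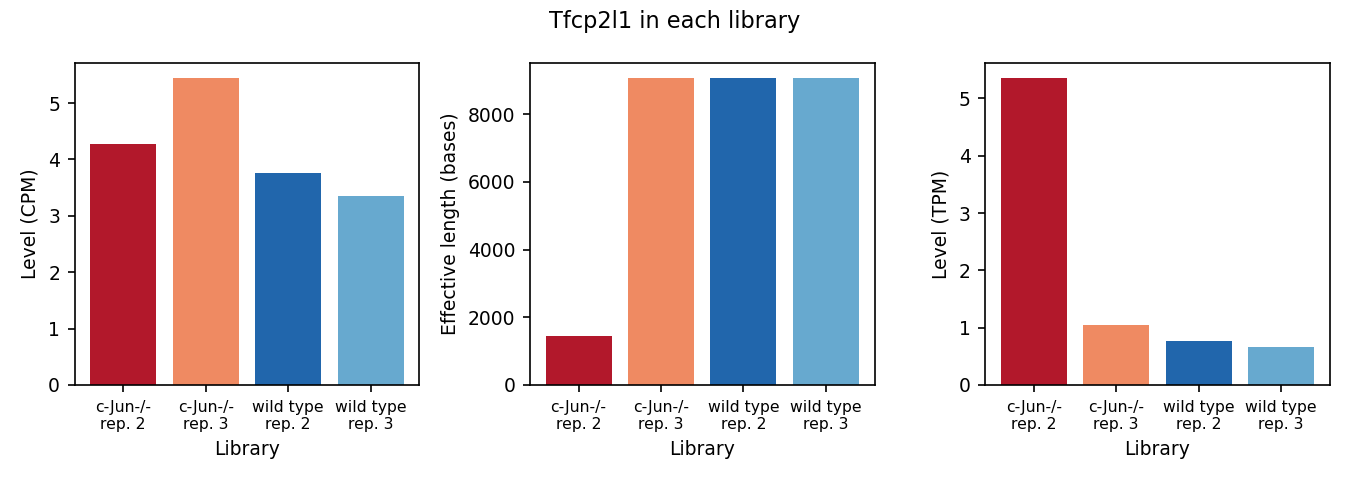
Tfcp2l1 in each library as CPM (left), deposited effective length in bases (middle) and TPM (right); each bar is 1 library and starts at 0. The level in CPM ran from 3.36 to 5.44, while the TPM of c-Jun-/- replicate 2, whose effective length was 1432 bases, was 5.35 and the other 3 were at most 1.04.

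The inputs of the naive network were looked at beside its factors. Of 14 tested genes that feed the network or end it, 1 was higher, 2 were lower and 11 were not called, with a median log2 fold change of -0.04. Pim1, a kinase gene induced by STAT3, rose from 15.8 and 12.5 CPM in wild type to 39.5 and 37.8 CPM in c-Jun-/- (1.45 ± 0.18, edgeR adjusted p = 3.998e-07). Lifr, the receptor of LIF, had 13.5 and 10.2 CPM in c-Jun-/- and 25.9 and 18.5 CPM in wild type (-0.88 ± 0.23, edgeR adjusted p = 0.00566). The call of Lifr was lost without wild-type replicate 2 and with limma on log2(TPM + 1) (adjusted p = 0.39). Tcf7l1, the repressor of Esrrb and other naive genes, fell from 155 and 168 CPM to 92.0 and 94.8 CPM (-0.79 ± 0.09, edgeR adjusted p = 4.587e-08). Socs3, another target of STAT3, was not called (0.36 ± 0.26), and its libraries overlapped.

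Nanog (ENSMUSG00000012396, chromosome 6, 122707489 to 122714633, plus strand), a homeodomain factor that Activin signalling sustains in epiblast stem cells, was by far the most abundant of the 10. It had 130 and 152 CPM in the c-Jun-/- libraries and 165 and 148 CPM in wild type. The groups overlapped, since c-Jun-/- replicate 3 lay between the wild-type libraries. The log2 fold change was -0.15 ± 0.09 (edgeR adjusted p = 0.285), with an approximate 95% interval of -0.33 to 0.02. Nanog was the only one of the 10 with expected counts that were not whole, in 2 libraries, as RSEM gives where some reads also fit other genes.

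Around Nanog the genes of a known cluster of pluripotency genes went different ways. Of 12 other coding genes within 250 kb, 6 were tested, 2 were higher, 1 was lower and 3 were not called. Gdf3, a ligand of the TGF-beta superfamily whose start lies at -97.4 kb from that of Nanog, had 32 and 20 counts in c-Jun-/- and 2 and 1 in wild type (3.93 ± 0.76, edgeR adjusted p = 0.000272). Apobec1, a cytidine deaminase gene that edits RNA, had 54 and 30 counts in c-Jun-/- and 5 and 7 in wild type (2.70 ± 0.52, edgeR adjusted p = 0.000263). Both were called in each alternative run. Slc2a3, which encodes a glucose transporter, fell from 401 and 365 CPM to 265 and 227 CPM (-0.64 ± 0.07, edgeR adjusted p = 5.344e-08). Dppa3, between Gdf3 and Nanog, was at 0 in all 4 libraries.

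**Figure D4:**
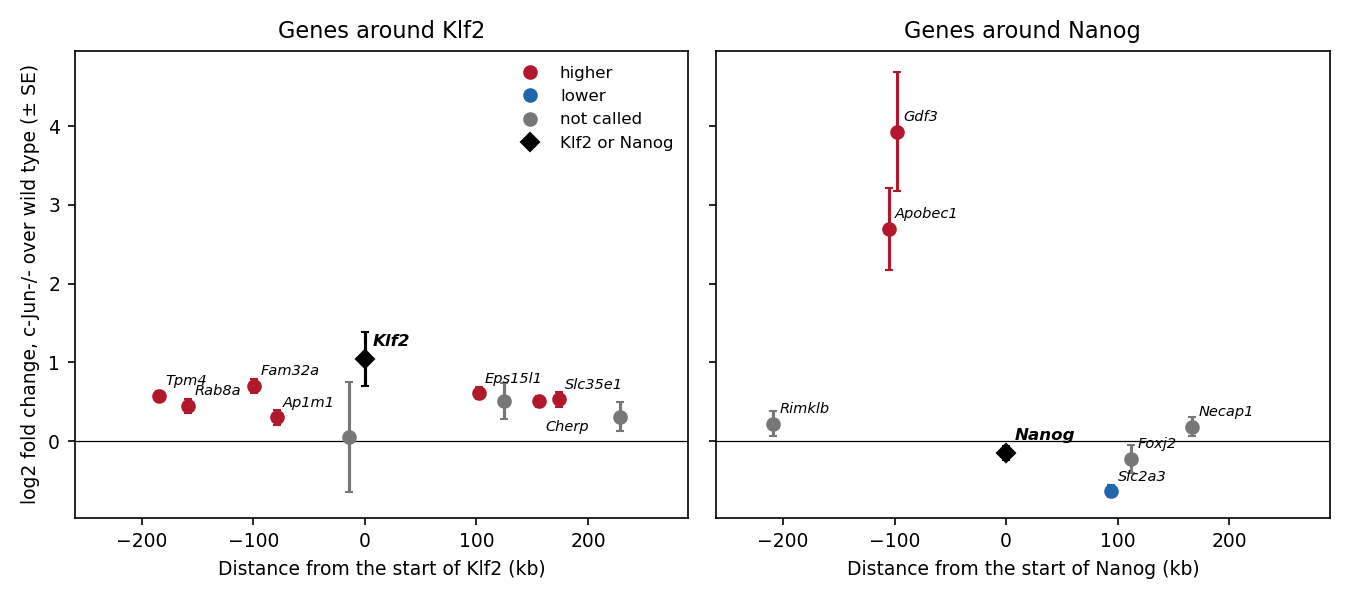
Log2 fold change, c-Jun-/- over wild type, of tested coding genes within 250 kb of Klf2 (left) and Nanog (right), against the distance between starts in kb; bars are standard errors and colours give the call. Around Klf2 the 7 called genes lie between 0.30 and 0.70, whereas around Nanog, itself at -0.15, Gdf3 and Apobec1 lie at 3.93 and 2.70 and Slc2a3 at -0.64.

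Levels between genes can be compared per length, in TPM. Nanog had a mean of 134 TPM over the 4 libraries (121 to 151), followed by Klf5 with 34.2 TPM (23.7 to 42.7), and these ranges did not overlap each other or those of the other genes. By group means the order of the rest differed between the genotypes, although several ranges overlapped. In c-Jun-/- the means were 11.4 TPM for Dppa5a, 10.9 for Klf2, 5.69 for Dppa2, 4.36 for Dppa4, 3.19 for Tfcp2l1, 3.08 for Esrrb and 1.19 for Tbx3, with Klf4 at 1.92 and 2.01 TPM in the 2 libraries. In wild type they were 5.43 TPM for Klf2, 3.88 for Esrrb, 1.92 for Klf4, 1.64 for Dppa5a, 0.715 for Tfcp2l1 and 0.600 for Dppa2, with Dppa4 and Tbx3 at 0. The place of Tfcp2l1 in c-Jun-/- rests on the 5.35 TPM of replicate 2, with its effective length of 1432 bases, and the other 3 libraries (0.67 to 1.04 TPM) lay below Klf4 (1.91 to 2.01 TPM). In c-Jun-/- the libraries of Dppa5a and Klf2, and those of Dppa2 and Dppa4, overlapped, and Dppa4 and Esrrb met at 3.13 TPM. The c-Jun-/- libraries of Tfcp2l1 spanned Esrrb, Klf4 and Tbx3 and overlapped Dppa2 and Dppa4. In wild type Dppa5a, at 0 and 3.27 TPM, spanned Klf4, Tfcp2l1 and Dppa2, so its place there was not resolved. The summed level of the 10 genes was 211 and 206 TPM in the c-Jun-/- libraries and 187 and 181 TPM in wild type. Nanog made up 57.4% and 63.9% of that sum in c-Jun-/- and 80.4% and 73.6% in wild type. In CPM the 9 genes other than Nanog summed to 76.8 and 71.3 in c-Jun-/- and to 39.6 and 47.2 in wild type.

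The other genes of the naive state gave no call. Of 15 further naive genes, 4 were tested, none was higher or lower (edgeR; 1 higher and 0 lower at an unadjusted p under 0.05, and 0 called by DESeq2 or limma), 7 were below the filter and 4 had 0 counts in every library. Those at 0 were Nr0b1, Prdm14, Dppa3 and Tcl1, factors that mark embryonic stem cells and the early embryo. Zfp42, the marker also known as Rex1, had 1 count in c-Jun-/- replicate 2 and 0 elsewhere. The tested genes were Tet2 (0.11 ± 0.20), Fgf4 (0.06 ± 0.51), Gbx2 (0.48 ± 0.47) and Zfp57 (0.29 ± 0.11), the last a factor that protects genomic imprints (edgeR adjusted p = 0.0684). Of the genes below the filter, Fbxo15, a target of Oct4, had 20 and 7 counts in c-Jun-/- and 5 and 3 in wild type. It was chosen after its values were seen.

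Markers of other cells were read in the same libraries. The 9 markers of naive embryonic stem cells summed to 10.6 and 9.57 CPM in c-Jun-/- and to 6.72 and 8.02 CPM in wild type, with 4 of the 9 at 0 throughout. Gbx2 gave 6.34 and 3.91 against 2.37 and 5.04 CPM of these sums, and Fbxo15 gave 3.17 and 1.52 against 0.989 and 0.56 CPM. The levels of Gbx2, Nr5a2 and Pecam1 overlapped between the genotypes. Of 10 fibroblast or feeder markers, 8 were tested, 1 was higher and 3 were lower, and they summed to 168 and 178 CPM in c-Jun-/- and 211 and 214 CPM in wild type. The higher one, the collagen gene Col3a1, had 46 and 21 counts in c-Jun-/- and 2 and 3 in wild type (3.58 ± 0.66, edgeR adjusted p = 0.000149). Col3a1 too entered the test through the group in which it was high. The lower ones were Dcn (-1.58 ± 0.49), Postn (-1.28 ± 0.24) and Acta2 (-0.39 ± 0.09), and Acta2 made up most of the sum. The other 4 tested, Col1a1, Col1a2, Pdgfrb and Thy1, were not called. Of 10 extraembryonic endoderm markers, 2 of the 6 tested were lower and none was higher, with sums of 101 and 106 against 128 and 135 CPM, and Afp was at 0. Trophoblast markers summed to 605 and 575 against 776 and 801 CPM, with 1 of 6 tested higher and 3 lower, Prl3d1 at 0 and Elf5 at 1 count in all. The keratin genes Krt8 (-0.36 ± 0.06) and Krt18 (-0.48 ± 0.07), both called lower, made up most of that sum. Krt7 was also lower (-1.01 ± 0.17), and Cdx2 and Hand1 were below the filter. The higher one, Gcm1, had 30 and 27 counts in c-Jun-/- and 11 and 8 in wild type (1.52 ± 0.52, edgeR adjusted p = 0.0448). Markers of primordial germ cells, a cell type in which Dppa genes, Klf2 and Nanog are also active, summed to 88.5 and 77.4 against 187 and 201 CPM. Kit made up most of that sum and fell by 1.54 on the log2 scale. Of the 9 germ cell markers, 3 were tested, with 0 higher, 1 (Kit) lower and 2 not called. Nanos3 (5 and 11 counts against 0 and 1) and Dnd1 (10 and 12 against 5 and 8), both below the filter and not tested, had the larger counts in c-Jun-/-. Nanos3 lies on chromosome 8. Ddx4 (10 and 2 against 7 and 7) and Dazl (0 and 0 against 0 and 1), also below the filter, did not. Prdm1 had 12.2 and 9.79 against 12.3 and 15.3 CPM (-0.31 ± 0.25) and was not called. Tfap2c (1.09 ± 0.40) was not called (edgeR adjusted p = 0.0638) but passed in 3 of 15 alternatives, among them without wild-type replicate 3 (1.66, adjusted p = 0.0384), and Dppa3 and Nanos2 were at 0. The part of such cells in the levels of the 10 genes was not tested.

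**Figure D5:**
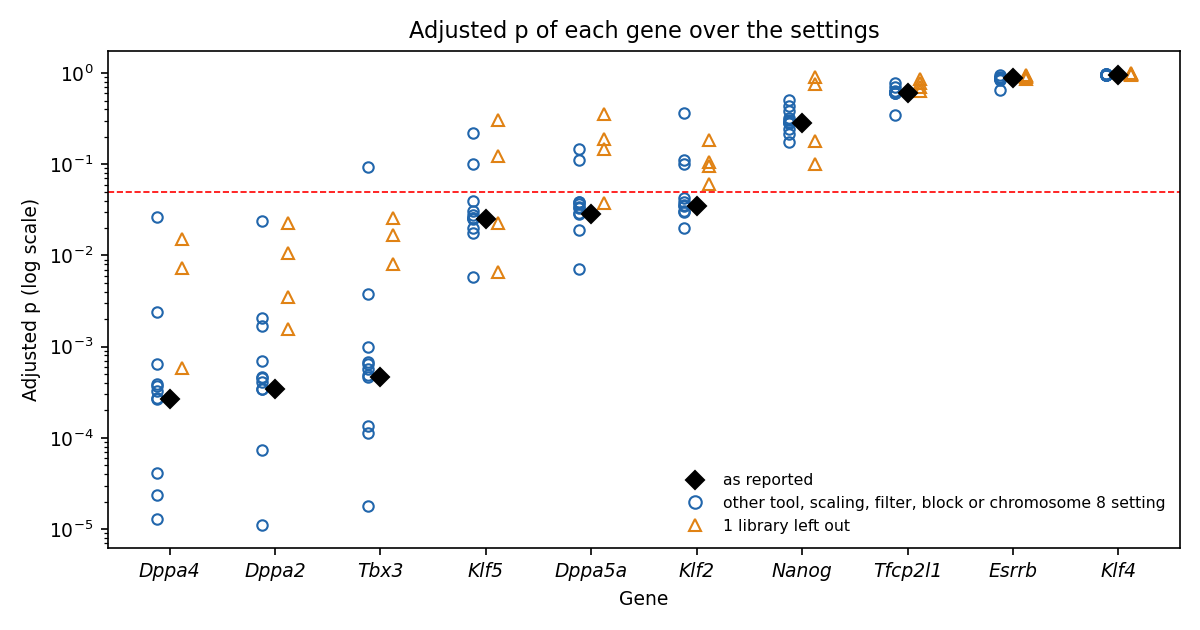
Adjusted p of each gene on a log axis; the black diamond is the value reported, blue circles are the other tools, scalings, filters, the block and the chromosome 8 settings, orange triangles are fits that leave out 1 library, and the dashed line is 0.05. The points of Dppa2 and Dppa4 lie below the line in each fit that tested them, those of Tbx3 do so but for 1, those of Dppa5a, Klf2 and Klf5 lie on both sides, and those of the 4 genes not called lie above it.

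The calls differed in how they held. Dppa2 and Dppa4 were called in each alternative that tested them, and Tbx3 in 13 of 14. The call of Klf5 was lost in 4 of 15 alternatives, that of Dppa5a in 5 of 15 and that of Klf2 in 7 of 14. With c-Jun-/- replicate 2, the deepest library, left out, only Dppa2 was called, with Dppa4 and Tbx3 under the filter. With wild-type replicate 2 left out, Dppa2, Dppa4 and Tbx3 were called.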

How the data were processed

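Genotype and replicate number come from each sample's title. Per the labels' protocols, RNA was prepared with TRIzol and libraries with an Illumina TruSeq RNA kit, which the labels do not describe as stranded, so antisense transcripts cannot be told apart. The authors deposited 1 RSEM table per library with expected counts (estimated counts that need not be whole), TPM, FPKM and effective length in bases. The submitters' processing notes name bcl2fastq, Bowtie2 and RSEM, and build mm10. Their versions, options and gene annotation were not given in the sources used here. The deposited FPKM was not used in a test.

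Identifiers were matched to GENCODE M21 (GRCm38; 28756 of 29267). Expected counts were rounded, filtered with filterByExpr (minimum count 10, total 15), scaled by TMM (factors 0.988 to 1.0085) and tested with edgeR 4.0.16 (R 4.3.3) without covariates; a gene was called at an adjusted p under 0.05. Approximate intervals are the fold change and about 2 standard errors; exact intervals condition on summed counts. Alternatives were RLE scaling, no TMM, DESeq2 1.42.0, limma 3.58.1 (voom, or a trend on log2(TPM + 1)), other filters and prior count, a replicate block, chromosome 8 settings and leaving out each library. The pipeline was tested on simulated data in which only genes of higher mean count were changed. That test does not cover genes as scarce as Dppa2, Dppa4, Dppa5a and Tbx3. The genes and lists were chosen with earlier results of these data known. Named genes were the 10, called genes of each list and neighbourhood (at most 4 per list), list members at 0 throughout and the 5 coding genes at 0 in wild type with the most c-Jun-/- signal; Tbx2, Socs3, Zfp42, Usp17le, Kit, Col3a1, Tfap2c and the list members and neighbours not called were named after their values were seen.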

Additional observations from a re-analysis of the deposited data

How the results depend on the processing

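The number of the 10 genes called higher was 6 as reported. It was 3 with DESeq2 and 2 with limma on log2(TPM + 1), and 1 to 5 with 1 library left out; the cause was not tested, apart from Dppa4 and Tbx3 dropping below the filter without c-Jun-/- replicate 2. None was called lower in any of the 15 alternatives. Of all genes, 1034 were higher and 922 lower; the higher count was 250 with limma on log2(TPM + 1), 651 with chromosome 8 centred and 668 without its genes, and the lower count was 584 with DESeq2 and 170 with limma on log2(TPM + 1). With 1 library left out these counts ran from 835 to 888 and from 633 to 757. With the replicate number as a block, 1250 and 1127 genes were called, the 6 calls among the 10 genes were the same genes, and 1 of the other naive genes (Zfp57) was called higher in place of 0. Klf9 was then also called lower and Tfap2c higher. The replicate numbers do not pair the libraries by label, and the differences between replicates 2 and 3 had a Pearson r of 0.00711 between genotypes across 10956 genes. Directions reversed for Rab8a (-0.06), Ap1m1 (-0.21) and Cherp (-0.01), neighbours of Klf2, with chromosome 8 centred, and for Mga (-0.03) and Gbx2 (-0.04) with limma on log2(TPM + 1). None of the 10 genes reversed. Levels of 0.473 to 0.643 CPM rest on 3 counts, so fold changes of Dppa2, Dppa4, Dppa5a and Tbx3 are limited by depth: with a prior count of 2 the log2 fold change of Dppa4 was 3.30 and that of Tbx3 was 3.14.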
